A study of Mus musculus with 8 samples.

Results

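The 32 genes described here encode chaperones and folding enzymes of the endoplasmic reticulum (ER), the machinery that removes misfolded ER proteins, and the sensors and transcription factors of the unfolded protein response (UPR). They were taken by name from the 35275 genes of the expression table, in which each of the 32 names occurs once. The rule uses no measured value, but the list was chosen with earlier results of these data known. RNA was sequenced from macrophages sorted out of subcutaneous MC38 tumors, MC38 being a mouse colon adenocarcinoma line, in 8 female C57BL/6J mice that received 100000 tumor cells at 6 to 8 weeks of age. All 8 mice carried Atg5flox/flox, an Atg5 gene flanked by loxP sites, and the 4 mice labelled Atg5 KO also carried LysMcre, which drives Cre from the lysozyme (Lyz2) locus in cells of the myeloid lineage, so that the deletion was aimed at these host cells and not at the implanted tumor cells. The 4 mice without Cre are labelled Atg5 WT. Tumors were taken at day 21, and the sorted cells were CD11b+ and F4/80+ and lacked Ly6G and Ly6C.

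Proteins that enter the secretory pathway fold in the ER, where Hsp70- and Hsp90-type chaperones, lectin chaperones and disulfide isomerases hold them until they are native, and where misfolded chains are sent back to the cytosol for degradation. When unfolded proteins accumulate, the membrane sensors IRE1 (Ern1), PERK (Eif2ak3) and ATF6 raise the transcription of these genes through XBP1, ATF6 and ATF4. Macrophages have a large secretory and lysosomal output and depend on this folding capacity, and autophagy, for which Atg5 is needed, can also remove parts of the ER.

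No member differed between the groups after adjustment. Of the 32 genes, 31 had a mean of at least 1 FPKM (fragments per kilobase of gene, scaled to the total of the library) over the 8 libraries and were tested with limma on log2(FPKM + 1). None passed an adjusted p of 0.05, with 0% of all 11019 tested genes called, and the smallest adjusted p of a member was 0.999. Chac1 lay below the level needed for the test. The genes with the lowest unadjusted p values were Herpud1 and Syvn1, both of the HRD1 degradation complex. Both had lower means under the KO label. Asns had higher values under that label in all 4 pairs of same-numbered mice. Such a pair joins separate animals by number only, and the labels state no pairing.

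Atg5 itself had 6.73, 3.50, 3.93 and 3.91 FPKM in Atg5 WT mice 1 to 4 and 16.2, 13.8, 12.8 and 13.3 FPKM in the KO-labelled mice 1 to 4. Every value under the KO label was thus above every WT value (limma adjusted p = 0.0987, and 0.00481 with the mouse number as a block), opposite to what the label says, and the second group is called the KO-labelled libraries throughout, each direction resting on that label. Reads from exons that Cre does not remove count toward this value, so it does not check the deletion. Lyz2, whose locus carries the Cre, had 4436 to 6268 FPKM in Atg5 WT and 2808 to 3467 FPKM in the KO-labelled libraries.

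Fragments assigned to genes numbered between 14799546 and 25555195 per library. Between 78 and 35782 fragments per library lay behind each value of a tested member, and between 8 and 91 behind those of Chac1. Mouse 1 differed from mice 2 to 4 in both groups, its 2 libraries being above all 6 others for 29.8% of the tested genes and below them for 14.7%. Among the tested members both mouse 1 libraries were above the others for 9 genes and below for 2, a share of 29% that lay near the background. Defining markers of the sorted cells were present, with Csf1r at 347 to 392 FPKM, whereas all 8 T and NK cell markers together reached at most 6.7 FPKM. Of the 10 macrophage markers, 7 had lower and 3 higher log2 means under the KO label. Itgam (CD11b) had 243 to 269 FPKM in Atg5 WT and 290 to 349 FPKM in the KO-labelled libraries. Its groups lay apart, as did 1.15% of tested genes in that direction. C1qa had 1800 to 2285 FPKM in Atg5 WT and 1277 to 2091 FPKM in the KO-labelled libraries. The 7 dendritic cell markers summed to 19.3 to 50.2 FPKM, mostly Ccr7 (7.93 to 30.5 FPKM) and Batf3 (7.86 to 17.6 FPKM). The 6 monocyte markers summed to 104 to 225 FPKM, with Ccr2 at 59.4 to 112 FPKM. Ly6c2, a gene for the Ly6C that the sort excluded, had 2.09 to 14.9 FPKM. The 8 neutrophil markers summed to 34.6 to 63.0 FPKM, mostly Retnlg (17.8 to 44.6 FPKM) and Csf3r (8.51 to 14.5 FPKM), while Ly6g was at 0 in 7 of 8 libraries. The 6 epithelial markers summed to 36.1 to 74.3 FPKM, mostly Cdh1 (34.7 to 71.9 FPKM), while Krt20 was at 0 in all 8. The summed level of the 10 fibroblast markers was 111 FPKM in Atg5 WT mouse 1 and 219 FPKM in KO-labelled mouse 1, against 19.3 to 37.1 FPKM elsewhere, and 5 of the 10 had a mean under 1 FPKM. Most of the mouse 1 sums was Col3a1 (74.1 and 149 FPKM). Both mouse 1 libraries were above the other 6 for 4 of the 5 tested fibroblast markers. Col1a1 was lowest in Atg5 WT mouse 1 (4.37 FPKM) and highest in KO-labelled mouse 1 (10.4 FPKM). The 9 B and plasma cell markers summed to 122 FPKM in Atg5 WT mouse 1 and to 31.1 to 51.5 FPKM in the other 7 libraries. In bulk RNA, fewer cells of a type and less RNA per cell cannot be told apart.

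The promoters were searched for exact matches to elements through which ATF6, XBP1 and ATF4 are known to act. They are given for 4 genes that the results turn on. RefSeq promoter windows (GRCm38.p6, the assembly also called mm10) from 250 bases before to 50 bases after the start were matched for 28 of the 32 members, with 29 windows. They were searched on both strands for the ER stress element ERSE (CCAAT, any 9 bases, CCACG), ERSE-II (ATTGG, any 1 base, CCACG), the UPR element UPRE (TGACGTGG) and the ATF4 element CARE (TGATGNAA). Capitals mark the fixed letters of a match, each window is printed 5′ to 3′ on the strand of the gene, and no matches overlapped one another in the windows printed.
Hspa5, chr2:34771840-34772139, plus strand, the most abundant member, with an ERSE: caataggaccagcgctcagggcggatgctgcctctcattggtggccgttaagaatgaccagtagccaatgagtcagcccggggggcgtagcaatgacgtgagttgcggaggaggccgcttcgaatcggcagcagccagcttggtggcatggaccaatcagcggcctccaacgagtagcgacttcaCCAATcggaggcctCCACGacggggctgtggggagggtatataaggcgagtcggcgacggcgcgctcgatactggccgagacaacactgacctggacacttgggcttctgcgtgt
Herpud1, chr8:94386179-94386478, plus strand, with an ERSE-II and a CARE: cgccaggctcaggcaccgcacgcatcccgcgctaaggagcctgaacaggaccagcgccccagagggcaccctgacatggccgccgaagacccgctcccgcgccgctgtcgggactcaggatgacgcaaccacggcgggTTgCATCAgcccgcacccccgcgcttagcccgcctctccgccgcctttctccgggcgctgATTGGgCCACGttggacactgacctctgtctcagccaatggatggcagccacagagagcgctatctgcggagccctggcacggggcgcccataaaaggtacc
Syvn1, chr19:6046326-6046625, plus strand, with an ERSE: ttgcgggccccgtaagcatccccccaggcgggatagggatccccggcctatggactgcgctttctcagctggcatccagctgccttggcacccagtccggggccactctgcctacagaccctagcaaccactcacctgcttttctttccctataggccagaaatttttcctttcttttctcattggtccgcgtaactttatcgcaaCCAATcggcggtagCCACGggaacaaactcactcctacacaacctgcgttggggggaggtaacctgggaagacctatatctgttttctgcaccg
Asns, chr6:7693160-7693459, minus strand, with a CARE: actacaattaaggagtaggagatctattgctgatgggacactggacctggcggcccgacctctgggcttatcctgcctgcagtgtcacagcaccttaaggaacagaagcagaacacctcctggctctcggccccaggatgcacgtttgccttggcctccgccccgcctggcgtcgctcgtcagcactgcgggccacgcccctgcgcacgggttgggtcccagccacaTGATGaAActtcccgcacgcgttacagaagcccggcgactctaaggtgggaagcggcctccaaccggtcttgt

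ERSE matches stood in the windows of 8 of the 28 members, against 0.119% of all 32851 windows. They belonged to 4 luminal chaperones, to 3 lectin chaperones and disulfide isomerases, and to Syvn1. The 9 matches differed only in the middle bases, in lower case here, and are printed on the strand on which the element reads.
Hspa5, 65 bases before the start: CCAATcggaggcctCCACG
Hsp90b1, 212 bases before the start: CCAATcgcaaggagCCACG
Hsp90b1, 107 bases before the start: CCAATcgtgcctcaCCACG
Dnajc3, 105 bases before the start: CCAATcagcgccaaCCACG
Creld2, 126 bases before the start: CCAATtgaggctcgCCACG
Calr, 162 bases before the start: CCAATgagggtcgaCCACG
Canx, 145 bases before the start: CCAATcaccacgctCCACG
Pdia6, 98 bases before the start: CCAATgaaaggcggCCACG
Syvn1, 44 bases before the start: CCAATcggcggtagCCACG

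An ERSE-II was found in Herpud1 and Dnajb11, against 0.0365% of all windows. A CARE was found in Asns, Chac1, Trib3 and Herpud1, against 3.97% of all windows. UPRE was in none of the 29 windows and in 0.676% of all. A match is a run of letters and not a bound site, and a window without an exact match is not shown to lack the element. The 8 members with an ERSE did not share a direction, with log2 differences from -0.24 to 0.15 (KO-labelled minus Atg5 WT, on the log2(FPKM + 1) scale here and below), of which 6 were negative and 2 positive.

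**Figure D1:**
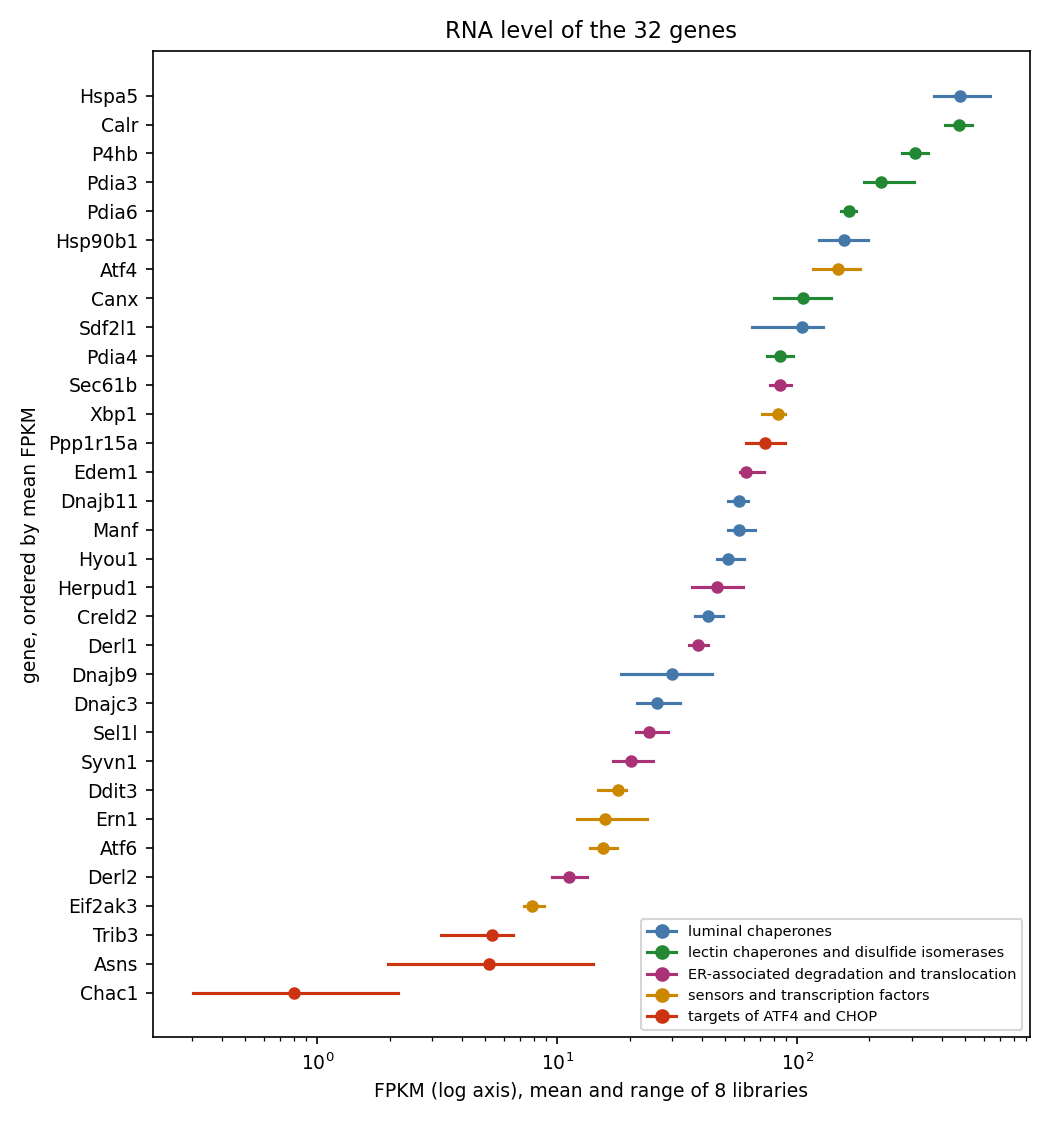
RNA level of the 32 genes as FPKM on a log axis, with the mean (point) and the range (line) of the 8 libraries, coloured by role. Hspa5 and Calr head the order at 479 and 471 FPKM, and Chac1 stands last at 0.797 FPKM.

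The members spanned a wide range of RNA level. By mean FPKM over the 8 libraries the order began with Hspa5 (479 FPKM), Calr (471), P4hb (309), Pdia3 (224), Pdia6 (164), Hsp90b1 (156), Atf4 (149), Canx (106) and Sdf2l1 (105), so that 9 genes reached a mean of 100 FPKM. Hspa5 and Calr ranked 140 and 142 among all genes, and 20 of the 32 members were among the 2000 most abundant genes. The sensors were far lower, with Ern1 at 15.8, Atf6 at 15.6 and Eif2ak3 at 7.86 FPKM. The neighbours Hspa5 (371 to 635 FPKM) and Calr (413 to 535 FPKM) overlapped in range, as did Ern1 and Atf6. The order at the low end was Eif2ak3, Trib3 (5.35 FPKM), Asns (5.21 FPKM) and Chac1.

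Members also differed in how steady they were. For 19 genes the highest library was less than 1.5 times the lowest, with Pdia6 at 1.16-fold and Derl1 at 1.2-fold. Only 3 genes passed a 2-fold range, Dnajb9 at 2.4-fold, Asns at 7.11-fold and Chac1 at 7.2-fold. A mouse 1 library held the highest value for 16 members, Atg5 WT mouse 1 for 11 and KO-labelled mouse 1 for 5. Atg5 WT mouse 4 held the lowest for 12. The shares of all genes with such extremes were not counted, so these counts are not read as a trait of the members. Both mouse 1 libraries lay above the other 6 for 29% of tested members and 29.8% of all tested genes. The B and plasma cell marker sum given above was also highest in Atg5 WT mouse 1, and the part of such cells in these values was not tested.

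**Figure D2:**
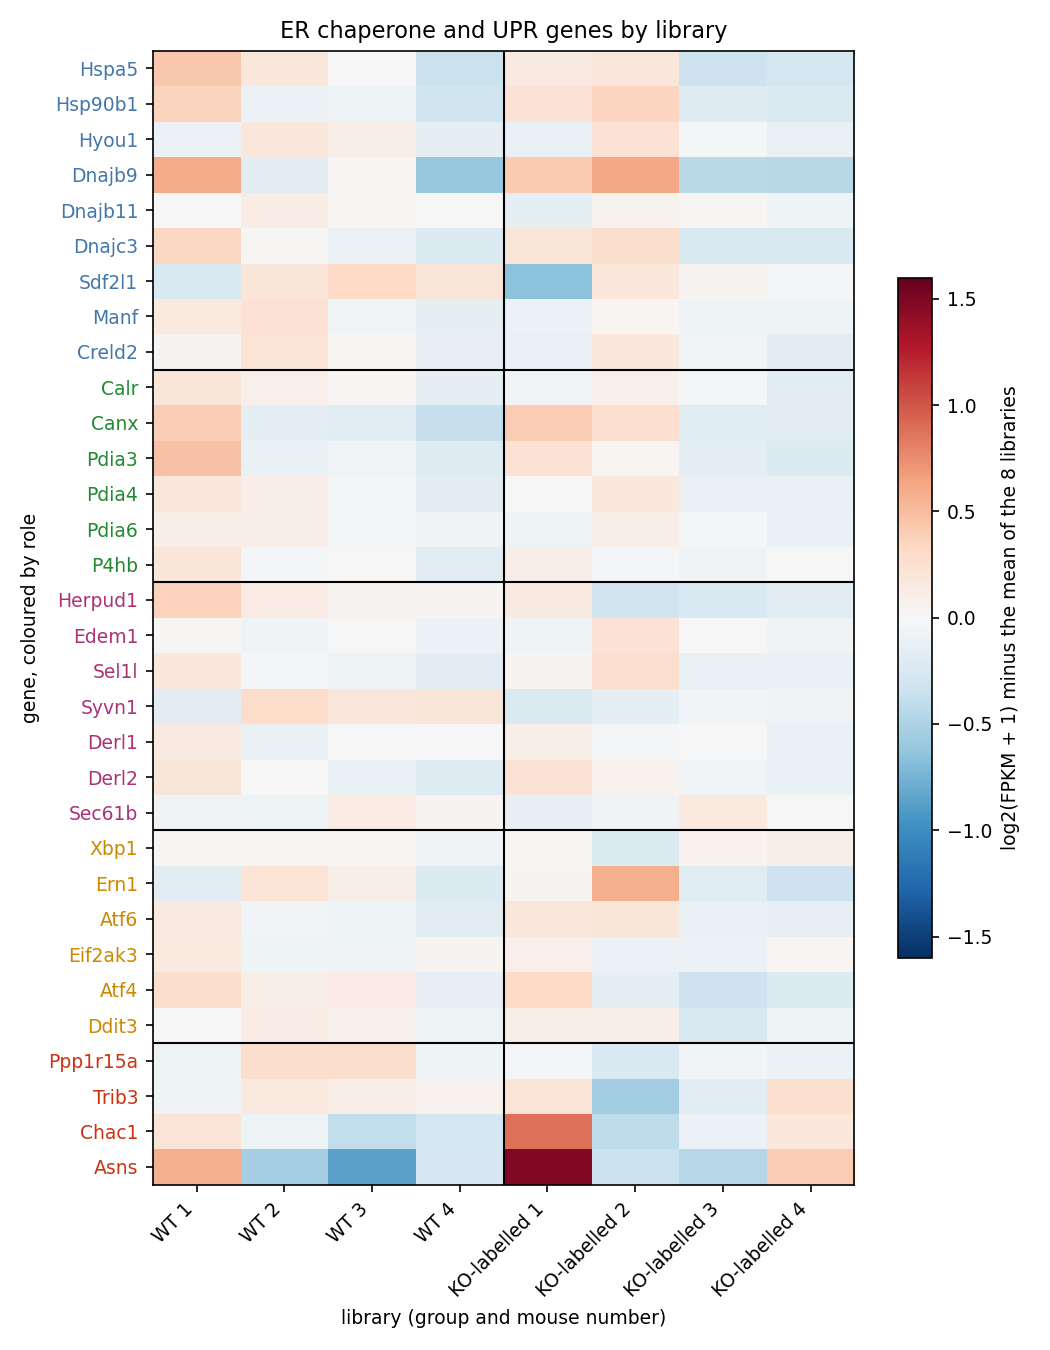
Each row is a gene and each column a library. Colour gives log2(FPKM + 1) minus the mean of the 8 libraries for that gene, and black lines separate the groups and the roles. No gene has all 4 libraries of 1 group above or below the other 4, and Dnajb9, for example, is highest in Atg5 WT mouse 1 and in KO-labelled mice 1 and 2.

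Among the 9 luminal chaperones, none was past an unadjusted p of 0.05 in the test without a block. Hspa5, which encodes BiP, the ER Hsp70 that also holds the sensors inactive, had 635, 534, 473 and 371 FPKM in Atg5 WT mice 1 to 4 and 522, 532, 375 and 386 FPKM in the KO-labelled mice 1 to 4. The groups overlapped almost fully, and the spread within each exceeded the gap between their means of 503 ± 111 and 454 ± 84.6 FPKM (SD, n = 4). The log2 difference of Hspa5 was -0.14 with a 95% interval from -0.56 to 0.28. Hsp90b1, the ER Hsp90 also called GRP94, had 197, 144, 146 and 123 FPKM in Atg5 WT and 180.4, 196, 133 and 131 FPKM in the KO-labelled mice. Its highest values came from both mouse 1 libraries and KO-labelled mouse 2, and its log2 difference was 0.07 with an interval from -0.34 to 0.48.

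Sdf2l1, a BiP cochaperone, had 86.6, 117, 128 and 117 FPKM in Atg5 WT mice 1 to 4 and 64.7, 116, 106 and 101 FPKM in the KO-labelled mice 1 to 4. It was lower in the KO-labelled library of each of the 4 same-numbered pairs, while both mouse 1 libraries lay below the other 6. The log2 difference was -0.23 ± 0.19 (SE), with an unadjusted limma p of 0.272, and 0.0339 with the mouse number as a block (adjusted p = 0.565). Without both mouse 1 libraries it was -0.16 with an unadjusted limma p of 0.116. Dnajb9, a J-domain protein that brings BiP to IRE1, had 43.4, 25.1, 28.8 and 18.4 FPKM in Atg5 WT and 38.3, 44.1, 20.8 and 20.6 FPKM in the KO-labelled mice, and its interval was the widest of the luminal group, from -0.61 to 0.77.

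The other luminal members had narrower ranges. Hyou1, the ER Hsp110 that acts as nucleotide exchange factor for BiP, stood at 51.8 ± 5.68 and 51.3 ± 6.18 FPKM in Atg5 WT and KO-labelled libraries (SD, n = 4). The J-domain proteins Dnajb11 and Dnajc3 stood at 58.7 ± 2.42 and 55.9 ± 3.59 FPKM and at 26.1 ± 4.63 and 26.0 ± 5.24 FPKM. Manf, a secreted BiP-binding protein, had 59.4 ± 7.1 and 55.1 ± 2.27 FPKM. Creld2, a disulfide isomerase-like protein, had 43.6 ± 4.28 and 41.1 ± 4.39 FPKM and was lower in all 4 pairs. For these 5 genes the means differed by less than the larger of the group SDs.

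None of the 6 lectin chaperones and disulfide isomerases was past an unadjusted p of 0.05. Calr, the calcium-binding lectin calreticulin, had 535, 497, 478 and 426 FPKM in Atg5 WT mice 1 to 4 and 455, 498, 464 and 413 FPKM in the KO-labelled mice 1 to 4. The groups overlapped, and the log2 difference was -0.08 with an interval from -0.32 to 0.16. P4hb, the classical protein disulfide isomerase, had 351, 305, 307 and 274 FPKM in Atg5 WT and 330.3, 300.4, 297 and 306 FPKM in the KO-labelled mice. Its means of 309 ± 31.6 and 308 ± 15.1 FPKM (SD, n = 4) were nearly equal, with an interval from -0.23 to 0.23.

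Canx, the membrane-bound lectin calnexin, was the member of this group with the largest difference, 0.15 (interval from -0.29 to 0.59). It had 136, 93.1, 91.4 and 80.1 FPKM in Atg5 WT and 138, 125, 90.6 and 91.2 FPKM in the KO-labelled mice. Pdia3, which works with both lectins, had 306 and 261 FPKM in the mouse 1 libraries and between 190 and 227 FPKM in the other 6. Pdia4 stood at 86.2 ± 9.49 and 84.1 ± 8.45 FPKM and Pdia6 at 167 ± 10.4 and 161 ± 10.9 FPKM (SD, n = 4) in the 2 groups. All 6 genes of the group had overlapping groups and unadjusted limma p values of at least 0.46.

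Genes of ER-associated degradation held the members with the lowest p values. Herpud1 (chromosome 8, 94386438 to 94395377, plus strand) encodes a membrane protein that organises the HRD1 complex, the channel and ligase that move misfolded proteins out of the ER. It had 59.7, 50.5, 47.1 and 47.5 FPKM in Atg5 WT mice 1 to 4 and 50.7, 36.4, 38.4 and 40.7 FPKM in the KO-labelled mice 1 to 4. Each KO-labelled library was below its same-numbered WT library, and among mice 2 to 4 the groups did not overlap, while KO-labelled mouse 1 lay within the WT range. The means were 51.2 ± 5.87 and 41.6 ± 6.35 FPKM (SD, n = 4), a ratio of 0.812. The log2 difference of Herpud1 was -0.30 ± 0.13 (SE) with an interval from -0.59 to -0.00495. The unadjusted limma p was 0.0469 and the adjusted p 0.999. Blocking on the mouse number gave an unadjusted limma p of 0.00586 and an adjusted p of 0.473, and without both mouse 1 libraries they were 0.00635 and 0.778. The exact permutation test over all 70 splits of 4 against 4 gave a two-sided p of 0.114, with 0.0286 as the smallest p it allows. In 7 of the 8 fits that left out 1 library, all but that without KO-labelled mouse 1, Herpud1 was no longer past an unadjusted limma p of 0.05, with log2 differences from -0.40 to -0.22 over the 8 fits.

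Syvn1 (chromosome 19, 6046576 to 6053712, plus strand) encodes HRD1, the ubiquitin ligase of the same complex. It had 17.6, 25.0, 23.0 and 23.2 FPKM in Atg5 WT mice 1 to 4 and 17.0, 18.1, 19.6 and 19.4 FPKM in the KO-labelled mice 1 to 4. Again each KO-labelled library was below its same-numbered WT library, and the only WT value within the KO-labelled range was that of mouse 1. The means were 22.2 ± 3.18 and 18.5 ± 1.2 FPKM (SD, n = 4), with a log2 difference of -0.24 ± 0.12 (SE). The unadjusted limma p was 0.0769, and it was 0.0255 with the mouse number as a block and 0.00767 without both mouse 1 libraries, with adjusted p values of 0.999, 0.564 and 0.778. The exact permutation p was 0.114, two-sided. Syvn1 shares 83 bases with Mrpl49 on the other strand (7.95 to 10.4 FPKM), and Herpud1 overlaps Gm15890 (at most 0.749 FPKM). In all, 9 of the 32 members overlapped another gene between its start and end coordinates. The longest overlaps were those of Manf with Vprbp (42681 bases) and with Rbm15b (6511 bases, same strand). Hsp90b1 shared 4598 bases with 1810014B01Rik and 977 with Gm15344, and Ppp1r15a shared 717 with Tulp2. No source used here states whether the counting used strand, so fragments in these overlaps could belong to either gene.

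The other 5 genes of this role had means that lay closer together, and none was past an unadjusted p of 0.05. Sel1l, the adaptor that stabilises HRD1, stood at 23.7 ± 2.52 and 24.5 ± 3.17 FPKM (SD, n = 4), with an interval from -0.23 to 0.32. Derl1 and Derl2, membrane proteins of the exit channel, stood at 38.7 ± 2.87 and 38.1 ± 2.24 FPKM and at 10.9 ± 1.43 and 11.5 ± 1.32 FPKM, Derl2 being higher in all 4 pairs. Edem1, which marks misfolded glycoproteins by trimming mannose, had 62.3, 58.9, 61.8 and 57.5 FPKM in Atg5 WT and 58.6, 72.4, 60.9 and 59.1 FPKM in the KO-labelled mice. Apart from KO-labelled mouse 2 its 7 values lay within 5 FPKM of one another. Sec61b, a subunit of the translocon through which chains enter the ER, had 81.2, 79.5, 93.0 and 87.3 FPKM in Atg5 WT and 76.9, 81.3, 94.6 and 84.2 FPKM in the KO-labelled mice. Its order of libraries was nearly the same in both groups, lowest in mice 1 and 2 and highest in mouse 3.

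**Figure D3:**
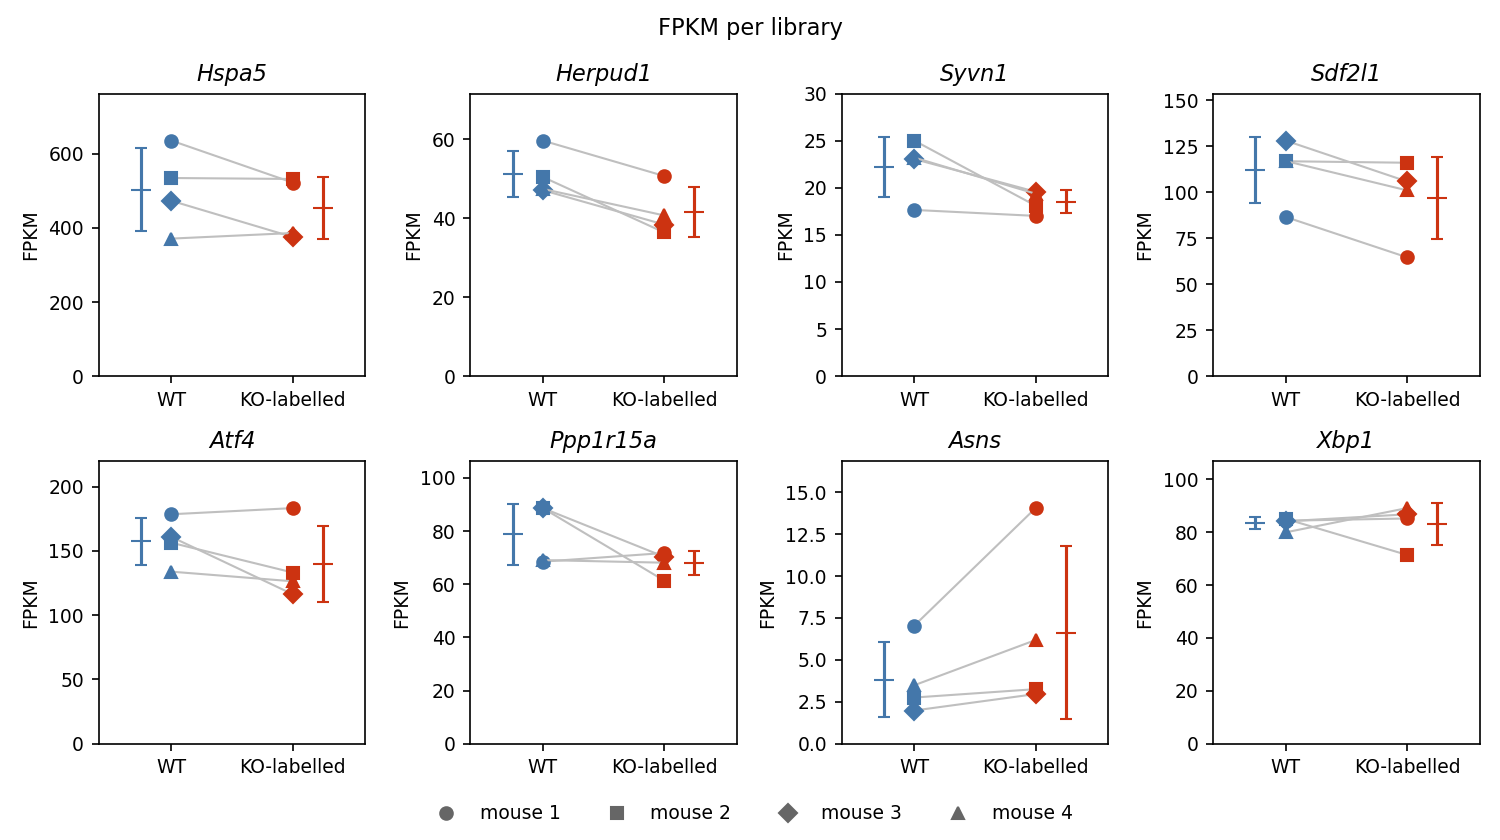
FPKM of 8 genes per library, with a symbol for each mouse number, grey lines joining same-numbered mice and the mean ± SD (n = 4) beside each group. Herpud1 and Syvn1 are lower in the KO-labelled library of every pair and Asns is higher in every pair, while Xbp1 stands near 83 FPKM in both groups.

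The sensors and transcription factors stood close to each other in the 2 groups. Xbp1, whose RNA is spliced by IRE1 to give the active factor, had 84.3, 85.0, 84.1 and 79.9 FPKM in Atg5 WT mice 1 to 4 and 85.2, 71.4, 86.8 and 89.1 FPKM in the KO-labelled mice 1 to 4. Its means were 83.4 ± 2.31 and 83.1 ± 7.97 FPKM (SD, n = 4) and the interval ran from -0.23 to 0.22. A value for the whole gene does not separate spliced from unspliced Xbp1, so IRE1 activity was not measured. Ern1, which encodes IRE1, ranged from 13.2 to 18.2 FPKM in Atg5 WT and from 12.1 to 23.6 FPKM in the KO-labelled libraries, with mouse 2 highest in both groups. Atf6 stood at 15.2 ± 1.47 and 15.9 ± 2.1 FPKM and Eif2ak3 at 7.98 ± 0.649 and 7.75 ± 0.53 FPKM, the latter lower in all 4 pairs with KO-labelled to WT ratios from 0.947 to 0.988.

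Atf4, the transcription factor whose translation PERK favours by phosphorylating eIF2, was the most abundant gene of this group. It had 178, 156, 161 and 134 FPKM in Atg5 WT mice 1 to 4 and 183, 133, 116 and 126 FPKM in the KO-labelled mice 1 to 4. Both mouse 1 libraries were above the other 6, and in mice 2 to 4 every KO-labelled value was below every WT value. The log2 difference was -0.18 ± 0.15 (SE) with an unadjusted limma p of 0.262. Without both mouse 1 libraries it was -0.26 with an unadjusted limma p of 0.0406 (adjusted p = 0.778), and 0.0542 when the mouse number was also a block. Ddit3, which encodes the death-promoting factor CHOP, stood at 18.2 ± 1.11 and 17.5 ± 2.14 FPKM (SD, n = 4). Ddit3 shares 68 bases with Mars on the other strand, which had 17.3 to 20.7 FPKM in Atg5 WT and 19.2 to 23.1 FPKM in the KO-labelled libraries.

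Of the 4 targets of ATF4 and CHOP, 3 were tested, with differences in both directions, and none passed after adjustment. Ppp1r15a encodes GADD34, which brings a phosphatase to eIF2 and restores translation. It had 68.5, 88.6, 88.6 and 69.1 FPKM in Atg5 WT mice 1 to 4 and 71.7, 61.4, 70.3 and 68.1 FPKM in the KO-labelled mice 1 to 4. Only WT mice 2 and 3 lay outside the KO-labelled range. The log2 difference was -0.20 ± 0.12 (SE) with an unadjusted limma p of 0.132, and -0.29 with 0.0468 without both mouse 1 libraries (adjusted p = 0.778). Trib3, a pseudokinase that restrains ATF4, had 4.97, 5.98, 5.73 and 5.54 FPKM in Atg5 WT and 6.30, 3.27, 4.54 and 6.51 FPKM in the KO-labelled mice. The KO-labelled values of Trib3 lay on both sides of the WT range, and the interval ran from -0.53 to 0.28.

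Asns (chromosome 6, 7675169 to 7693254, minus strand), the asparagine synthetase induced through ATF4, had 7.04, 2.75, 1.98 and 3.49 FPKM in Atg5 WT mice 1 to 4 and 14.1, 3.25, 2.96 and 6.18 FPKM in the KO-labelled mice 1 to 4. It was higher in the KO-labelled library of every pair, from 1.18-fold between the mice numbered 2 to 2.0-fold between those numbered 1. The mouse 1 libraries held the highest value of each group. The means were 3.81 ± 2.24 and 6.61 ± 5.17 FPKM (SD, n = 4). The log2 difference was 0.54 ± 0.44 (SE) with an unadjusted limma p of 0.244 and an interval from -0.44 to 1.53. With the mouse number as a block its SE was 0.13 and the unadjusted limma p 0.0024, and the adjusted p of 0.446 did not pass. Over mice 2 to 4 the difference was 0.42, with an unadjusted limma p of 0.132 and of 0.0186 with the block.

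Chac1, a glutathione-degrading enzyme induced by ATF4, rested on few fragments. It had 0.992, 0.625, 0.312 and 0.413 FPKM in Atg5 WT mice 1 to 4 and 2.18, 0.302, 0.62 and 0.934 FPKM in the KO-labelled mice 1 to 4. The highest value of Chac1 was again that of KO-labelled mouse 1. In a fit with no filter on low values its log2 difference was 0.28 ± 0.27 (SE), with an unadjusted limma p of 0.336. The fibroblast marker sums given above were highest in the same libraries as Asns and Chac1, and their part in these values was not tested.

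Taking the 31 tested members as a set, their values were centred close to no difference. The median log2 difference was -0.03, against 0.03 over all 11019 tested genes, and 21 of the 31 were negative (67.7%), against 41.5% of all tested genes. Of 67 other tested genes of the same pathways, described below, 26 were negative (38.8%), and their median was 0.04. With values rescaled to TPM the member median was 0.01, the median of all genes 0.07, and 15 of 32 were negative. The member median minus that of all genes was -0.063 with FPKM, -0.056 with TPM and -0.067 with median-of-ratios scaling. The differences of 21 members lay within 0.1 of 0 and those of 26 within 0.2. The 95% interval lay inside ±0.5 for 22 members and inside ±0.3 for 10, which is the resolution of 4 against 4 mice here. At an unadjusted limma p under 0.05 there was 1 lower member, Herpud1, and 0 higher ones, against 0.826% and 1.2% of all tested genes. With limma's voom on the recovered fragments, 0 members passed after adjustment, 1 was lower at an unadjusted p under 0.05 and 0 higher.

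With the mouse number as a block, 3 members were lower at an unadjusted limma p under 0.05 (Herpud1, Syvn1 and Sdf2l1), against 3.62% of all tested genes, and 1 was higher (Asns), against 5.19%. None passed after adjustment, and 0.00908% of all genes did. Without both mouse 1 libraries, 4 members were lower at that level (Herpud1, Syvn1, Atf4 and Ppp1r15a), against 2.21% of the genes tested, and 0 were higher, against 3.43%. After adjustment 0 of these passed, against 0.00923% of the genes tested. For no member were the groups of 4 fully apart, against 0.59% of genes that lay apart and lower and 1.15% that lay apart and higher. Lower values in all 4 pairs were found for 5 members, Sdf2l1, Creld2, Herpud1, Syvn1 and Eif2ak3 (16.1%, against 6.52% of tested genes), and higher values in all 4 pairs for Derl2 and Asns (6.45%, against 13.2%).

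**Figure D4:**
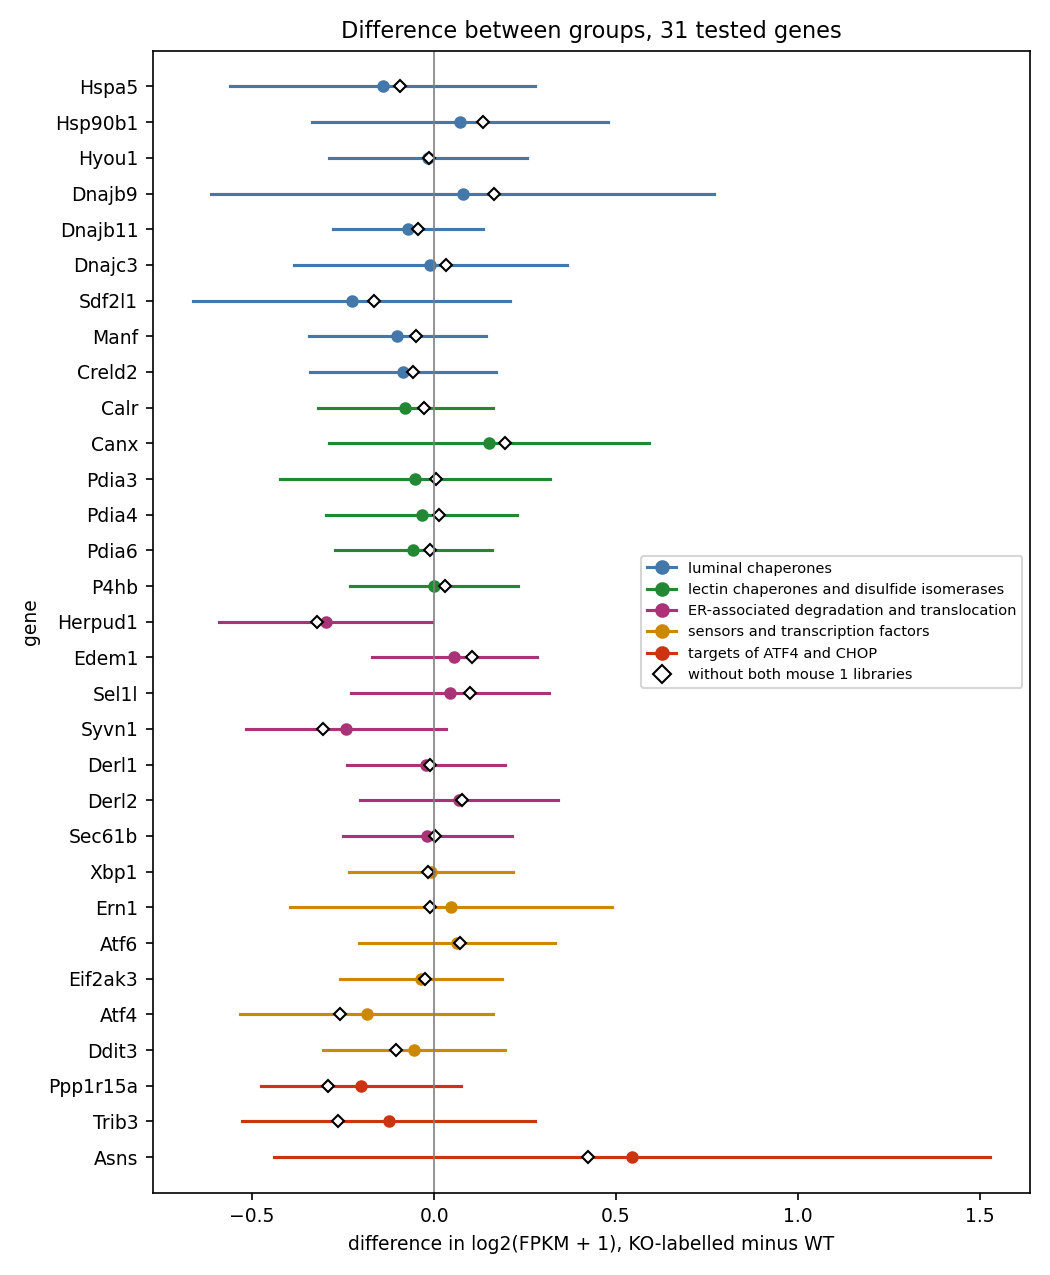
Difference in log2(FPKM + 1), KO-labelled minus Atg5 WT, for the 31 tested genes. Points and lines give the limma estimate from all 8 libraries with its 95% interval, and open diamonds the estimate without both mouse 1 libraries. Only the interval of Herpud1 ends below 0, at -0.00495, and that of Asns is the widest.

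Other genes of the same pathways were taken from 6 lists, 70 genes in all, of which 67 were tested and 0 passed after adjustment. At an unadjusted limma p under 0.05, 1 of 67 was higher, Ero1l, and 0 lower, against 1.2% and 0.826% of all tested genes. Ero1l encodes the oxidase that recharges disulfide isomerases. It had 66.0, 57.3, 59.6 and 53.4 FPKM in Atg5 WT mice 1 to 4 and 73.3, 88.6, 68.9 and 70.7 FPKM in the KO-labelled mice 1 to 4. Every KO-labelled value of Ero1l was above every WT value, as for 1.15% of all tested genes. The log2 difference was 0.34 ± 0.12 (SE), with an unadjusted limma p of 0.0146 and an adjusted p of 0.999. The exact two-sided permutation p was 0.0286, the smallest possible, which any gene with groups fully apart reaches. In the same list of 12 folding enzymes, Uggt1, which checks glycoprotein folding, stood at 25.8 ± 2.43 and 28.7 ± 3.19 FPKM and Ero1lb at 14.1 ± 2.63 and 16.1 ± 2.5 FPKM (SD, n = 4). None of the 17 tested genes of degradation and translocation was past an unadjusted p of 0.05, those with the smallest p being Faf2, Ssr2 and Sec63.

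Among the 17 tested genes of the ATF4 pathway, 0 were past an unadjusted limma p of 0.05, and with the block 2 were lower (Cebpb and Slc3a2) and 3 higher (Psat1, Phgdh and Slc7a11), against 3.62% and 5.19% of all tested genes. None of the 5 passed after adjustment. Slc3a2 and Slc7a11 encode the chains of the cystine transporter and had group means in opposite order, neither passing the test. Slc3a2 stood at 203 ± 18.4 and 175 ± 14.1 FPKM, lower in all 4 pairs, and Slc7a11 at 19.1 ± 1.68 and 30.1 ± 16.2 FPKM (SD, n = 4), with 53.9 FPKM in KO-labelled mouse 2. Mthfd2, a mitochondrial folate enzyme, stood at 21.5 ± 2.01 and 24.3 ± 2.46 FPKM. The serine synthesis genes Psat1 and Phgdh, chosen after their values were seen, were highest in the mouse 1 libraries like Asns, at 25.4 and 33.0 FPKM and at 15.7 and 25.8 FPKM. Of the 17 tested genes of this list, both mouse 1 libraries were above the other 6 for 5 and below them for 4. Over all tested genes these shares were 29.8% and 14.7%. Of the eIF2 regulators, 0 of 6 were past an unadjusted p of 0.05, with Eif2ak4, Ppp1r15b and Eif2s1 having the smallest p. Nor were any of the 10 branch regulators, led by Creb3, Creb3l2 and Mbtps2. Among 7 tested receptors that bring ER to autophagosomes, Fam134b stood at 23.2 ± 2.8 and 26.2 ± 2.83 FPKM, Tex264 at 29.0 ± 3.35 and 25.5 ± 3.96 and Atl3 at 17.2 ± 3.41 and 20.2 ± 3.92 (SD, n = 4), all with overlapping groups.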

How the data were processed

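The authors deposited 1 table of FPKM values for 35275 genes with names, coordinates and lengths, 1 column per library. Per the labels' protocols, a Zymo kit was used for total RNA and NEBNext Ultra RNA reagents for the libraries. STAR, CASAVA and mm10 are named in the submitters' processing notes, while no source used here names the counter, its strand setting or the annotation release. Multiplied by gene length, 100% of the values were whole numbers of fragments (tolerance 0.01) once divided by the worth of 1 fragment in that library, so fragments could be recovered. FPKM is relative to the library total, so more reads in some genes leave fewer for others, and log2(FPKM + 1) understates changes of low genes.

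The test was limma 3.58.1 (R 4.3.3) with a mean-variance trend, two-sided, on 11019 genes (mean over the 8 libraries of 1 FPKM or more), with Benjamini-Hochberg adjustment over all of them. It was also run on simulated data drawn with no mouse effect, so that run does not give its power on these libraries. Intervals are 95% and come from the fit of the 8 libraries without a block. Alternatives were a pseudocount of 0.1, no filter, median-of-ratios scaling, TPM, voom, the mouse number as a block and fits without single libraries or both mouse 1 libraries. The fit that joins the block with leaving out mouse 1 was added after the data were seen. Columns were matched to samples by name. The labels number separate mice within each group and state no pairs or block. Same-numbered libraries deviated together from their group means (r over genes 0.841, 0.208, 0.458 and 0.471 for mice 1 to 4). The numbers were taken as pairs on the strength of this correlation alone. Fits with the block and counts over pairs thus rest on a pairing inferred from these same data. Without mouse 1 the values for mice 2 to 4 were 0.297, -0.134 and 0.205, which leaves mouse 1 as the main source of the pairing.

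The members and all gene lists were chosen with earlier results of these data known. Values in every library were given for members past an unadjusted p of 0.05 with or without the block and for the 2 most abundant of each role, and up to 3 genes with the smallest p were named from each other list. Those for Dnajb9, Canx, Chac1 and Ero1l were added after the values were seen. Of the list names absent from the table, all 6 were matched by gene identifier, and Vimp and Sec62 stood on 2 lists.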

Additional observations from a re-analysis of the deposited data

Results flagged for a closer look

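In 64 groups of 4 libraries (32 genes in 2 groups), 2 held a library far from the other 3 by Dixon's test, where chance gives about 1 in 20, or 3.2. Dnajb11 had its highest Atg5 WT value in mouse 2, 62.3 FPKM, with the other 3 between 57.2 and 58.0 FPKM. Edem1 had its highest KO-labelled value in mouse 2, 72.4 FPKM, with the other 3 between 58.6 and 60.9 FPKM.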

How the results depend on the processing

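After adjustment, 0 of the tested members passed under every alternative, while the count over all genes was 0 or 1. It was 1 with median-of-ratios scaling, with the replicate block and without both mouse 1 libraries, also with both of the last together, and 0 to 1 in fits without 1 library, with 1 only without Atg5 WT replicate 1. The count of members lower at an unadjusted p under 0.05 was 1 in the analysis reported, 0 with TPM, 3 with the replicate block, 4 without both mouse 1 libraries and 2 when these were joined, and 0 to 2 without 1 library. It was 0 in each fit without Atg5 WT replicate 2, 3 or 4 or without KO-labelled replicate 2, 3 or 4, 1 without Atg5 WT replicate 1 (Syvn1) and 2 without KO-labelled replicate 1 (Herpud1 and Atf4). The count of higher members was 0, and 1 with the replicate block, with or without mouse 1. The replicate block changed no adjusted call of a member. The member median lay between -0.10 and -0.0045 without 1 library. It was 0.01 with TPM, where the median of all genes was 0.07, and -0.07 with median-of-ratios scaling, where it was 0.00033.

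Members near 0 changed sign. With TPM, which moved the median of all genes from 0.03 to 0.07, these were Hyou1 (0.020), Dnajc3 (0.025), Pdia4 (0.0036), Derl1 (0.015), Sec61b (0.018) and Xbp1 (0.028), and with median-of-ratios scaling P4hb (-0.034), so that these signs follow the shift of all genes under each scaling. Without both mouse 1 libraries, with or without the replicate block, they were Dnajc3 (0.032), Pdia3 (0.0066), Pdia4 (0.014), Sec61b (0.0012) and Ern1 (-0.012). Without 1 library the ranges that crossed 0 were -0.11 to 0.097 for Dnajc3, -0.14 to 0.093 for Pdia3, -0.10 to 0.022 for Pdia4, -0.063 to 0.022 for Derl1, -0.14 to 0.17 for Ern1, -0.069 to 0.0089 for Eif2ak3, -0.096 to 0.040 for Hyou1, -0.056 to 0.063 for P4hb, -0.044 to 0.061 for Xbp1, -0.075 to 0.023 for Sec61b, -0.034 to 0.20 for Hsp90b1, -0.11 to 0.29 for Dnajb9, -0.035 to 0.11 for Sel1l, -0.014 to 0.086 for Edem1, -0.23 to 0.039 for Trib3 and -0.10 to 0.021 for Ddit3. The cause of the changes without libraries was not tested. Chac1, with 8 to 91 fragments per library, was tested only with no filter and with TPM.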
